A study of Mus musculus with 11 samples.

Results

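Primary mouse granulosa cells given one pool of small interfering RNAs against Akt1 (pool 3) were compared with cells given a nontargeting scrambled siRNA (scramble). The comparison rests on 5 of the 11 libraries of the series, 2 of pool 3 and 3 of scramble, chosen by their labels and not by any measured value. The cells came from ovaries of RjOrl:SWISS mice, an outbred strain, and carried no engineered allele that the labels name. Both groups received 30 pmol of siRNA with the lipid reagent Lipofectamine RNAiMax. The mix gave way to culture medium at 5 h, and RNA extraction followed at 30 h. Pool 3 held 3 of the 4 Akt1 siRNAs of the study, numbers 6, 7 and 9, and was without siRNA 8. The protocol and the sample titles name the pools differently, and the makeup of each pool is given here on the assumption that equal numbers mean the same pool. Nothing in the labels says that replicates came from separate cultures. Each p-value therefore reflects the spread between libraries of the same group, which may be technical. In the main fits that spread was estimated over scramble and all the Akt1 pools, and not over these 5 libraries alone.

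AKT1 is a serine/threonine kinase that is recruited to the plasma membrane when PI3K makes phosphorylated lipids, as happens downstream of insulin, IGF1 and other growth factor receptors. It phosphorylates FOXO transcription factors, which then leave the nucleus, the TSC complex, which restrains mTOR, and GSK3. Granulosa cells surround the oocyte, respond to follicle stimulating hormone through cAMP, make inhibins, activins and steroid hormones, and use this pathway for growth, survival and differentiation.

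Depth ranged from 23851293 reads in genes (scramble replicate 3) to 32643158 (scramble replicate 1), with 27202738 and 31907141 in the pool 3 libraries. Levels are given as CPM, the reads of a gene scaled by library size, and a CPM compares one gene across libraries, not one gene with another. The counts of the pool 3 libraries differed from each other by a chi-square per degree of freedom of 2.69 over genes and those of scramble replicates 2 and 3 by 6.34, while scramble replicate 1 differed from those 2 by 282 and 303. Scramble replicate 1 had a transcript-length bias. Its median log2 difference from scramble replicates 2 and 3 ran from 0.83 in the shortest of 5 classes of annotated transcript length to −0.88 in the longest. The pool 3 libraries showed a far smaller slope in the same direction, with class medians of 0.05 to −0.03 and 0.05 to −0.02. Fold changes are therefore given against scramble replicates 2 and 3 unless another set is named, and the fit with all 3 scramble libraries is read beside them.

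**Figure D1:**
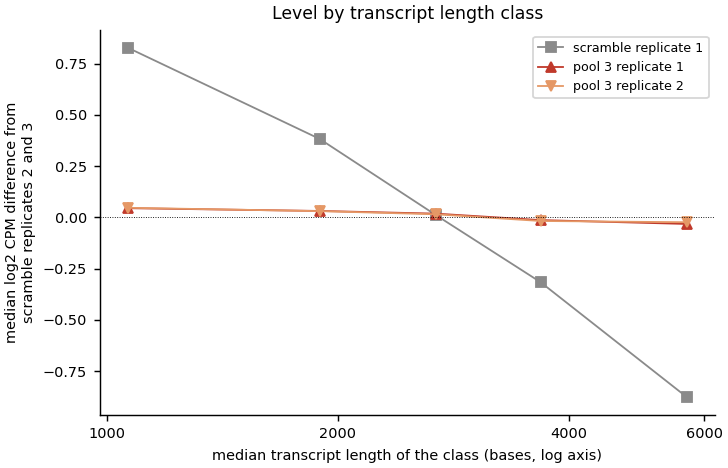
Median log2 difference in CPM from the mean of scramble replicates 2 and 3 (vertical axis) in 5 classes of annotated transcript length (horizontal axis, shortest to longest). Scramble replicate 1 runs from 0.83 to −0.88, and both pool 3 libraries stay between 0.05 and −0.03.

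The targeted gene, Akt1, had 530, 441 and 412 CPM in scramble and 77.3 and 79.6 CPM in pool 3. Both pool 3 libraries lay below every scramble library and kept 18.4% of the mean level of scramble replicates 2 and 3. Akt1 fell by 2.45 ± 0.05 on the log2 scale (SE; edgeR quasi-likelihood test, adjusted p = 1.64e-17; 2 libraries against 2) and by 2.55 ± 0.14 with all libraries (adjusted p = 0.000157). In mm10 it spans 112653821 to 112674884 of chromosome 12, minus strand. Its paralog Akt2 was at 62.6, 58.3 and 53.6 CPM in scramble and at 53.6 and 56.0 in pool 3, overlapping ranges that did not pass the test (log2 −0.04 ± 0.05, edgeR adjusted p = 0.549). Among the SGK kinases, which are related to AKT and also act below PI3K, Sgk1 fell by 0.29 ± 0.04 and Sgk3 by 0.55 ± 0.15 against scramble replicates 2 and 3, neither of which was called with all libraries.

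Across all genes, edgeR called 6864 of 14062 against scramble replicates 2 and 3 at an adjusted p under 0.05 (48.8%), of which 3199 were higher in pool 3 (22.7%) and 3665 lower (26.1%). With all 3 scramble libraries it called 1580 of 14144 (11.2%), 613 higher (4.33%) and 967 lower (6.84%), and 1572 genes were called in both with the same sign (11.2% of 14062), 608 higher (4.32%) and 964 lower (6.86%). Most calls were small changes: 294 of the genes called against scramble replicates 2 and 3 were at least 2-fold higher and 393 at least 2-fold lower, and 48 and 22 were at least 4-fold apart. Both pool 3 libraries lay outside the range of all 3 scramble libraries for 6185 genes (43.7%), above it for 3173 (22.4%) and below it for 3012 (21.3%), and outside the range of scramble replicates 2 and 3 for 10035 (71.4%). Against scramble replicates 2 and 3 the share called lower rose with transcript length, from 17.5% in the shortest class to 33.1% in the longest. The share called higher was 21.0% and 23.7% in those classes. The count with all libraries was 210 without pool 3 replicate 1, 312 without pool 3 replicate 2 and 6864 without scramble replicate 1. It was 0, with 1907 genes at an unadjusted p under 0.05, when the other pools were left out of the fit that estimates the spread. Of the 119 genes named here that were called with all libraries, 75 lost the call without pool 3 replicate 1, 68 without pool 3 replicate 2, 18 without scramble replicate 2 and 10 without scramble replicate 3.

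**Figure D2:**
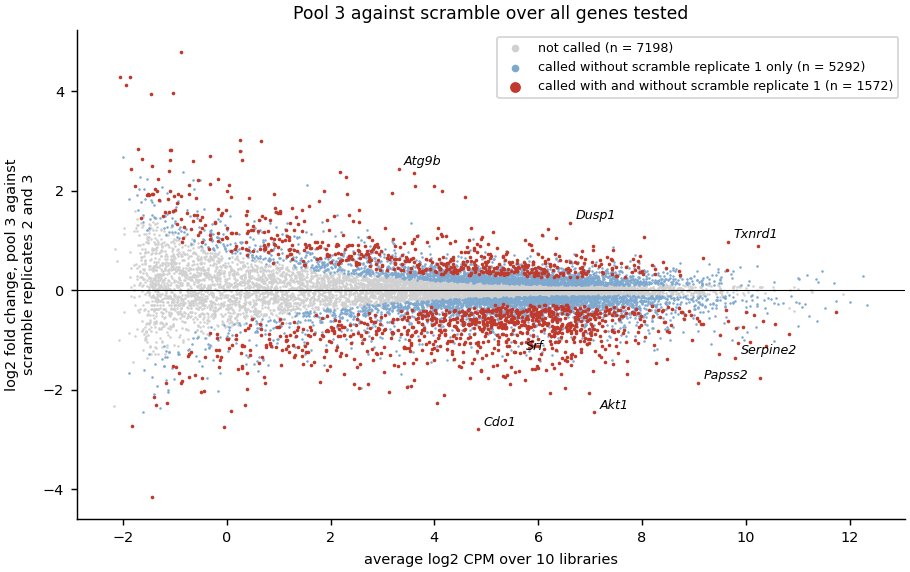
Log2 fold change of pool 3 against scramble replicates 2 and 3 (vertical axis) by average log2 CPM (horizontal axis), 1 point per gene tested, colored by whether edgeR called it in that fit only or also with all 3 scramble libraries. The 1572 genes called in both fits lie on both sides of 0, and Akt1 and Cdo1 are the lowest of the labelled genes.

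The largest fall among the genes open to naming, whose mean log2 CPM reached 2, was not that of Akt1. The rule for naming also required a call in both fits and both pool 3 libraries outside the scramble range. It passed over predicted genes, pseudogenes and mitochondrial genes. Cdo1, which encodes cysteine dioxygenase, the enzyme that turns cysteine toward taurine, was at 78.7, 52.5 and 55.6 CPM in scramble and at 7.74 and 7.88 in pool 3. It fell by 2.80 ± 0.07 log2, or 6.94-fold (edgeR adjusted p = 2.92e-17; −2.99 ± 0.19 with all libraries). Car14, a membrane-bound carbonic anhydrase, was at 37.6, 30.3 and 26.0 CPM in scramble and 6.16 and 5.71 in pool 3 (−2.26 ± 0.13). Smpd3, a neutral sphingomyelinase that makes ceramide, was at 18.6, 30.6 and 27.5 against 7.09 and 6.48 (−2.11 ± 0.09). In each of these the pool 3 libraries were close to each other and under the lowest scramble library, the latter as the rule required. Cldnd1, a claudin-domain membrane protein, fell from 181, 220 and 204 CPM to 51.2 and 50.2 (−2.07 ± 0.05). Ei24, an endoplasmic reticulum protein needed for autophagy and a p53 target, fell from 149, 130 and 131 to 31.5 and 31.3 (−2.06 ± 0.05). Nme1, a nucleoside diphosphate kinase, was at 413, 170 and 154 CPM in scramble and 42.9 and 40.7 in pool 3 (−1.96 ± 0.05), a gene for which scramble replicate 1 stood far above the other scramble libraries. Others of the 12 largest falls were those of Pcbd1, a tetrahydrobiopterin recycling enzyme (−2.04 ± 0.11), Slc35f2 (−1.97 ± 0.15), Popdc2 (−1.95 ± 0.16) and the tryptophan hydroxylase Tph1 (−1.93 ± 0.11). The rule required a call with all libraries, where the edgeR adjusted p of these genes, Akt1 included, was 0.00712 or less.

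The largest rise by the same rule was that of Atg9b, which encodes a lipid scramblase of autophagosome formation. It was at 3.72, 3.95 and 3.89 CPM in scramble and at 22.1 and 20.8 in pool 3, a 5.44-fold rise (log2 2.44 ± 0.11, edgeR adjusted p = 1.05e-13; 2.48 ± 0.11 with all libraries). Adgrg3, an adhesion G protein-coupled receptor, was at 1.93, 2.20 and 1.34 CPM in scramble and at 9.39 and 9.44 in pool 3 (2.38 ± 0.17). Stmn4, a microtubule-destabilizing stathmin, was at 8.51, 4.90 and 5.19 against 26.5 and 25.8 (2.37 ± 0.10). In all 3 every pool 3 library was above every scramble library, as the rule required. Vash1, a tubulin carboxypeptidase first known as an inhibitor of angiogenesis, rose from 5.90, 7.18 and 7.70 CPM to 32.2 and 32.0 (2.10 ± 0.09). Ptx3, a pentraxin of the cumulus matrix, rose from 11.7, 8.66 and 8.65 to 37.6 and 32.4 (2.0 ± 0.10). Ret, a receptor tyrosine kinase for glial-derived ligands, rose from 3.38, 4.75 and 3.81 to 17.4 and 16.4 (1.96 ± 0.14). Also among the 12 were Ivl, the cornified envelope protein involucrin (2.27 ± 0.17), Plac1 (2.09 ± 0.11), the tight junction gene Cldn1 (1.94 ± 0.15) and the oviductal glycoprotein gene Ovgp1 (1.61 ± 0.14). Vgf, a neuropeptide precursor, rose by 1.51 ± 0.15. By the rule each of these genes was called with all libraries too, with edgeR adjusted p of 0.0185 or less.

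**Figure D3:**
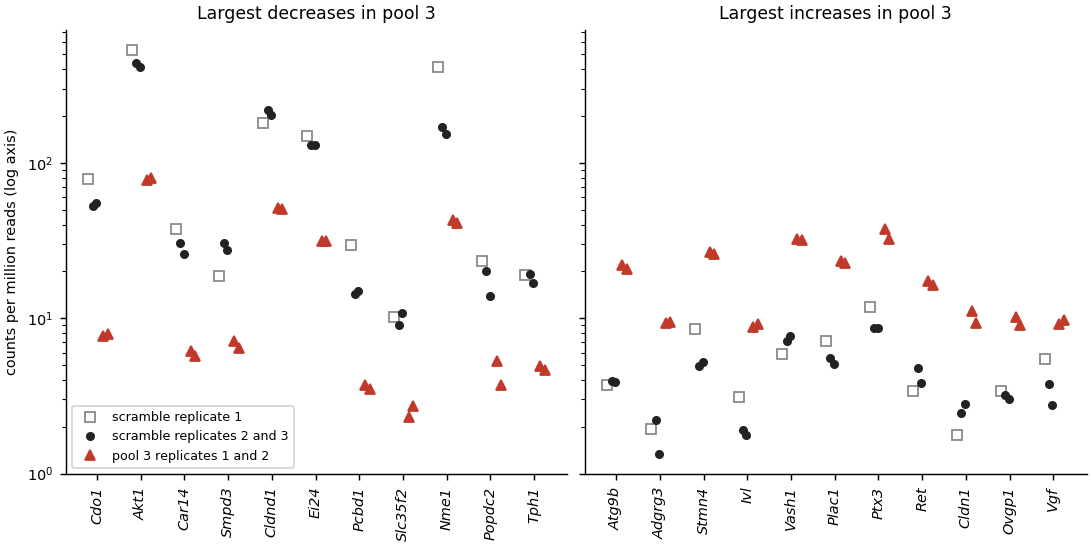
CPM in each library (log axis) of genes among the 12 largest decreases and 12 largest increases that were called both with all 3 scramble libraries and without scramble replicate 1. Both pool 3 libraries lie outside the range of the 3 scramble libraries for every gene shown, as the rule for showing them required.

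The 40 lists of ovarian, signalling, metabolic and stress genes were read against the shares of all genes, which are not matched to the transcript lengths of a list. With all libraries, between 0 and 4 members of any list passed in one direction without pool 3 replicate 1, and likewise without pool 3 replicate 2. The granulosa cell markers moved down almost together. Of 27 tested, 22 fell and 1 rose against scramble replicates 2 and 3, where 26.1% of all genes fell, and their median log2 fold change was −0.66 against 0.01 over all genes. With all libraries 12 fell and 0 rose (median −0.68), a count that was 4 when either pool 3 library was left out. Inha, the shared alpha subunit of the inhibins, was at 3494, 2429 and 2196 CPM in scramble and at 1210 and 1327 in pool 3 (−0.87 ± 0.05). Fst, which encodes the activin-binding protein follistatin, was at 65.9, 63.6 and 58.5 against 26.5 and 24.2 (−1.28 ± 0.09). Serpine2, a protease inhibitor of the follicle wall, was at 1556, 1382 and 1327 against 522 and 544 (−1.35 ± 0.06). For these 3 genes pool 3 lay below all scramble libraries and the call held with all libraries. Ihh, the hedgehog ligand that granulosa cells send to theca cells, was at 3.13, 2.58 and 2.47 CPM in scramble and 0.609 and 0.428 in pool 3 (−2.30 ± 0.33), the largest fall of the list. Nap1l5 (−1.88 ± 0.18), Bmp3 (−1.49 ± 0.23), Hsd17b1, which makes estradiol from estrone (−1.13 ± 0.06), the gap junction gene Gja1 (−1.06 ± 0.06), the nuclear receptor gene Nr5a1 (−0.77 ± 0.05), Wnt4 (−0.73 ± 0.05) and the aromatase gene Cyp19a1 (−0.65 ± 0.18) also fell in both fits.

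Some markers moved less or were called only without scramble replicate 1. Foxl2, a transcription factor that maintains granulosa identity, was at 203, 146 and 146 CPM in scramble and 109 and 120 in pool 3, and fell by 0.36 ± 0.06 against scramble replicates 2 and 3 but not by the test with all libraries (edgeR adjusted p = 0.0665). Esr2, the beta estrogen receptor, was at 40.4, 77.0 and 79.0 against 38.1 and 44.3 (−0.93 ± 0.06), and Inhba, an activin subunit, at 20.2, 468 and 478 against 315 and 313 (−0.60 ± 0.05). In both, scramble replicate 1 alone was as low as pool 3 or lower, and neither was called with all libraries. Gatm, a creatine synthesis enzyme, was the 1 marker that rose (0.33 ± 0.05). Amhr2, the receptor for anti-Müllerian hormone, had overlapping ranges (138, 85.8 and 86.5 against 79.1 and 92.0 CPM; −0.02 ± 0.05), and Fshr, the receptor for follicle stimulating hormone, was at 0.287 CPM or less in all 5 libraries.

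The summed level of the 29 granulosa markers was 8494 to 8976 CPM in scramble and 5427 and 5609 in pool 3. The summed level of 23 theca and stroma markers moved the same way, from 5271 to 6075 CPM to 3930 and 4004. Without Acta2, which is also in the actin and SRF list, it was 3036, 3693 and 3639 CPM in scramble and 3062 and 3191 in pool 3. Pool 3 thus lay below scramble replicates 2 and 3 and above scramble replicate 1 alone, the library with the length bias. This sum was added after the values were seen, and no gene was taken out of the granulosa sum. The theca genes Cyp17a1 (0.0305 to 0.461 CPM) and Insl3 (0 in pool 3) were close to 0. The stromal proteoglycan gene Dcn fell from 194, 179 and 210 CPM to 107 and 114 (−0.82 ± 0.06), while Pdgfra did not pass the test (0.01 ± 0.06). Of 16 oocyte markers 13 stayed under 1 CPM in all 5 libraries, and their sum was 6.96 to 9.30 CPM in scramble and 6.77 and 5.86 in pool 3. Of 18 blood and immune markers 14 stayed under 1 CPM, with Ptprc at 0.0916 CPM or less and Hba-a1 at 0. The 18 summed to 7.63 to 11.8 CPM in scramble and 12.1 and 13.8 in pool 3. Of the 5 tested 4 rose, where 22.7% of all genes did. Among them were Csf1r (1.63, 1.22 and 0.995 CPM against 3.01 and 3.76) and Cd3e (0.123, 0.152 and 0.173 against 0.860 and 0.886). The macrophage marker Cd68 had overlapping ranges. A gene as low as Cd3e can pass the low-count filter through the libraries where it is high. The share of tested members that rose may therefore overstate the change of the list. Endothelial markers summed to 48.4 to 56.9 CPM in scramble and 57.1 and 58.5 in pool 3, and surface epithelium markers to 545 to 907 and 511 and 491. In bulk RNA, fewer cells of a type and less RNA per cell cannot be told apart, and the part of other cell types in these changes was not tested.

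**Figure D4:**
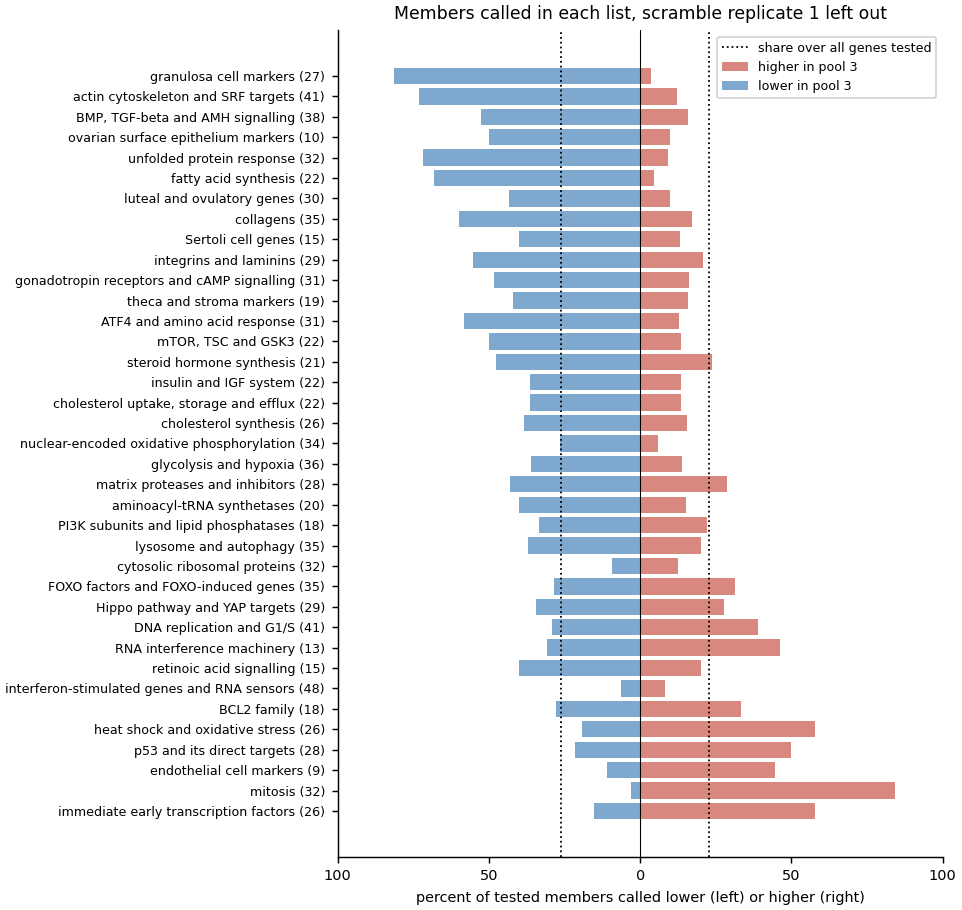
Percent of the tested members of each gene list called higher or lower in pool 3 against scramble replicates 2 and 3 (edgeR), with dotted lines at the share of all genes (22.7% higher, 26.1% lower). The granulosa and the actin and SRF lists have the largest shares of members lower, and the mitosis list the largest share higher.

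Signalling by BMP, TGF-beta and activin, through which the oocyte and the granulosa cells address each other, had more genes lower than higher, among them receptors and an inhibitor. Of 38 genes tested 20 fell and 6 rose against scramble replicates 2 and 3 (median −0.31), and 9 fell and 1 rose with all libraries, with 1 and 2 falling without pool 3 replicate 1 and replicate 2. Of all genes 26.1% fell and 22.7% rose against scramble replicates 2 and 3, and 6.84% and 4.33% with all libraries. Among receptors, Bmpr1b was at 21.9, 41.3 and 42.0 CPM in scramble and 16.3 and 16.4 in pool 3 (−1.36 ± 0.08; edgeR adjusted p = 0.032 with all libraries, a call lost without any 1 library other than scramble replicate 1). Bmpr2 was at 176, 515 and 602 against 304 and 322 (−0.84 ± 0.06) and Acvr1b at 4.85, 14.3 and 14.5 against 7.92 and 6.87 (−0.97 ± 0.10). For both, scramble replicate 1 lay below pool 3, and both were called only against scramble replicates 2 and 3. Among the pathway's intracellular inhibitors Smad6 fell from 65.0, 55.2 and 50.8 CPM to 26.9 and 31.2 (−0.87 ± 0.07), whereas Smad7 did not pass the test (−0.02 ± 0.05). Id3, a standard BMP target, fell from 443, 217 and 217 to 119 and 127 (−0.83 ± 0.05), and Id1 by 0.52 ± 0.06. Of the ligands Bmp6 rose (20.9, 24.04 and 19.1 against 32.2 and 33.6 CPM; 0.59 ± 0.08, both fits) and Tgfb3 fell by 0.46 ± 0.05.

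The serum response factor SRF, with its cofactors of the MRTF family (Mkl1 and Mkl2), switches on actin and smooth muscle genes through a short promoter element, the CArG box. The promoters of the Srf gene itself, which holds a pair of boxes, of the skeletal alpha actin gene Acta1, of the myosin light chain gene Myl9 and of the calponin gene Cnn2 are shown because their transcripts fell and each holds the box within 250 bases before its annotated start. Sequences are from RefSeq (GRCm38.p6), on the strand of the gene, with boxes in capitals; each ends at or before the start site.
Srf, chr17:46556175-46556274, minus strand: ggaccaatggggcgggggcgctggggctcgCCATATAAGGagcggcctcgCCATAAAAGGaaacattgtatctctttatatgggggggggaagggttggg
Acta1, chr8:123894799-123894878, minus strand: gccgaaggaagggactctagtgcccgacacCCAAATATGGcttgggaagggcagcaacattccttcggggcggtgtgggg
Myl9, chr2:156775273-156775352, plus strand: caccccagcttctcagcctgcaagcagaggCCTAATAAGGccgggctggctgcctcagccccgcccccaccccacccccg
Cnn2, chr10:79988514-79988593, plus strand: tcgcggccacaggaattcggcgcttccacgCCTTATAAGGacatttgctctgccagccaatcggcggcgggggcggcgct
The boxes lie 72 and 52 bases before the start of Srf, 63 before that of Acta1, 151 before that of Myl9 and 46 before that of Cnn2.

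Actin cytoskeleton genes and SRF targets fell as a group in pool 3. Of 41 tested, 30 fell and 5 rose against scramble replicates 2 and 3 (median −0.52), and 18 fell and 0 rose with all libraries (median −0.60), a count that was 4 when either pool 3 library was left out. Of all genes 26.1% fell and 22.7% rose against scramble replicates 2 and 3, and 6.84% and 4.33% with all libraries. Srf was at 87.5, 76.0 and 72.4 CPM in scramble and at 29.1 and 32.9 in pool 3 (−1.26 ± 0.06, edgeR adjusted p = 2.35e-13; −1.34 ± 0.11 with all libraries), and its cofactor gene Mkl1 at 85.6, 123 and 107 against 69.7 and 69.4 (−0.74 ± 0.06). Acta1 was at 3.01, 2.89 and 2.03 CPM against 0.752 and 0.733 (−1.74 ± 0.26) and Myl9 at 588, 314 and 273 against 111 and 108 (−1.43 ± 0.06). In all 4 pool 3 lay below every scramble library. Acta2, smooth muscle alpha actin, fell from 3040, 2008 and 1631 CPM to 868 and 813 (−1.12 ± 0.07). The smooth muscle myosin gene Myh11 fell from 80.4, 126 and 121 to 44.9 and 39.0 (−1.57 ± 0.06), the tropomyosin gene Tpm3 from 159, 98.3 and 90.3 to 33.5 and 30.4 (−1.57 ± 0.06) and the focal adhesion adaptor gene Tgfb1i1 from 164, 139 and 122 to 47.2 and 48.4 (−1.46 ± 0.06). Lmod1 (−1.30 ± 0.07), Actg2 (−1.07 ± 0.06), Cnn1 (−0.94 ± 0.06), Tagln (−0.75 ± 0.06), Zyx (−0.67 ± 0.06), Tpm1 (−0.67 ± 0.05) and Cnn2 (−0.53 ± 0.05) fell in both fits. The cytoplasmic actins Actb (−0.36 ± 0.04) and Actg1 (−0.37 ± 0.06) fell against scramble replicates 2 and 3 alone. Vcl, which encodes the focal adhesion protein vinculin, was at 520, 1055 and 1071 CPM in scramble and 535 and 541 in pool 3 (−0.99 ± 0.04), so scramble replicate 1 was at the pool 3 level. Those that rose included Tagln2 (0.42 ± 0.04), Gsn (0.39 ± 0.04), Actn1 (0.25 ± 0.04) and Cnn3 (0.13 ± 0.04), all by less than 1.5-fold.

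A CArG box was found in the promoter window, from 250 bases before to 50 after an annotated start, of 10 of the 32 members of that list with a window (31.2%), against 168 of the 10681 genes tested with a window (1.57%) and 1.63% of all 32851 windows. The pattern is its own reverse complement, so 1 search covers both strands. The list holds known SRF targets, so its larger share follows from how it was made and is not a result of these data. Of the 10, 8 fell, 0 rose, and the low-abundance Vil1 (0.93 ± 0.45) and Lima1 (−0.07 ± 0.04) did not pass the test. Of the 22 members with a window and no box 15 fell (68.2%). Outside that list and the immediate early genes, 156 genes tested held a box, of which 32.7% fell and 20.5% rose, beside 26.4% and 23.0% of the 10513 genes with a window and no box. A match is a description of letters and not evidence that SRF binds there.

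Other serum-responsive genes moved the other way. Of 26 immediate early genes, which are transcribed within minutes of a stimulus, 15 rose and 4 fell against scramble replicates 2 and 3 (median 0.44), and 10 rose and 1 fell with all libraries (median 0.38), with 2 and 3 rising without pool 3 replicate 1 and replicate 2. The shares over all genes were 22.7% higher and 26.1% lower against scramble replicates 2 and 3, and 4.33% and 6.84% with all libraries. The 4 immediate early genes that fell were Srf, Egr2, Zfp36 and Fosl2. Dusp1, a phosphatase that turns off MAP kinases, was at 64.0, 66.9 and 53.1 CPM in scramble and at 155 and 155 in pool 3 (1.35 ± 0.07, edgeR adjusted p = 1.01e-12; 1.33 ± 0.11 with all libraries). Maff, a small MAF factor, was at 30.4, 25.7 and 20.1 against 46.4 and 42.5 (0.94 ± 0.08). Fosb was at 2.33, 3.19 and 3.37 against 6.45 and 5.90 (0.90 ± 0.14) and Egr1 at 34.3, 39.3 and 39.8 against 68.4 and 70.1 (0.80 ± 0.08). Each of these had both pool 3 libraries above all scramble libraries. Atf3 (0.70 ± 0.13), Btg2 (0.69 ± 0.04), Klf4 (0.59 ± 0.08), Myc (0.57 ± 0.05), Klf6 (0.46 ± 0.04) and Jun (0.38 ± 0.05) rose in both fits. Fos itself, at 27.9, 29.5 and 27.0 CPM against 32.4 and 30.5, did not pass the test (0.14 ± 0.07, edgeR adjusted p = 0.11). Ctgf and Cyr61, matrix-associated targets of the Hippo cofactor YAP, rose from 971, 909 and 776 to 1599 and 1553 CPM (0.89 ± 0.05) and from 532, 499 and 420 to 744 and 715 (0.66 ± 0.06), while the YAP gene Yap1 did not pass (0.01 ± 0.04). In the whole Hippo list 8 of 29 rose and 10 fell, shares near those of all genes.

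Transcripts of mitosis were higher in pool 3. Of 32 genes of the mitotic apparatus, 27 rose and 1 fell against scramble replicates 2 and 3 (median 0.34), where 22.7% of all genes rose. With all libraries 9 rose and 0 fell (median 0.37), a count of 1 and 3 without pool 3 replicate 1 and replicate 2. The changes were modest and even. Nek2, a kinase that separates centrosomes, was at 30.0, 33.3 and 32.6 CPM in scramble and at 53.6 and 52.5 in pool 3 (0.68 ± 0.06, edgeR adjusted p = 2.38e-09). Prc1, which bundles spindle microtubules, was at 123, 142 and 148 against 231 and 211 (0.60 ± 0.05), and Kif23, a kinesin of cytokinesis, at 59.2, 64.9 and 70.5 against 97.2 and 96.5 (0.51 ± 0.05). Pool 3 was above every scramble library for these 3, which were called in both fits. Kif20a, Ckap2, Kif2c, Bub1, Ccnf and Bub1b rose in both fits by 0.35 to 0.51. The 1 member that fell was Aurka, the aurora A kinase (92.1, 64.0 and 63.7 against 51.6 and 47.2 CPM; −0.38 ± 0.05). Genes of DNA replication and the G1/S step did not move together, with 16 of 41 rising and 12 falling (median 0.02). Within them Ccnd2, cyclin D2 of follicle growth, was at 373, 1043 and 996 CPM in scramble and 1465 and 1433 in pool 3 (0.50 ± 0.04), a rise not called with all libraries (edgeR adjusted p = 0.173).

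Of 28 p53 targets and regulators 14 rose and 6 fell (median 0.21), and 4 and 4 with all libraries (2 and 1 when either pool 3 library was left out). Mdm2, the ubiquitin ligase of p53, rose from 177, 207 and 206 CPM to 277 and 263 (0.38 ± 0.04), and the long noncoding RNA Pvt1 from 21.7, 20.9 and 21.5 to 38.4 and 34.6 (0.78 ± 0.07). Cdkn1a, the cell cycle inhibitor p21, went the other way, from 439, 356 and 327 to 241 and 239 (−0.52 ± 0.04), as did Sesn2, a stress-induced inhibitor of mTORC1, from 32.0, 56.6 and 54.1 to 22.4 and 23.9 (−1.26 ± 0.06). All 4 were called in both fits. The share of all genes was 22.7% rising and 26.1% falling, for the p53 list and for the BCL2 family alike. Among 18 BCL2 family genes 6 rose and 5 fell. Those that fell in both fits were killers or mitochondrial members: Bcl2l13 from 89.3, 139 and 147 CPM to 56.6 and 59.5 (−1.31 ± 0.05), Bok from 78.8, 37.0 and 34.6 to 18.9 and 20.4 (−0.87 ± 0.07) and Bak1 from 119, 114 and 104 to 59.9 and 63.3 (−0.83 ± 0.05). The survival genes Bcl2 (0.37 ± 0.07), Bcl2l1 (0.30 ± 0.04) and Bcl2l2 (0.28 ± 0.04) and the killers Bbc3 (0.64 ± 0.09) and Bax (0.45 ± 0.06) rose against scramble replicates 2 and 3, and none of these 5 was called with all libraries.

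Folding and quality control genes of the endoplasmic reticulum fell. Of 32 genes of the unfolded protein response, 23 fell and 3 rose against scramble replicates 2 and 3 (median −0.25), and 7 fell and 0 rose with all libraries, 1 when either pool 3 library was left out. Beside both lists of this paragraph, 26.1% of all genes fell and 22.7% rose against scramble replicates 2 and 3. With all libraries those shares were 6.84% and 4.33%. Ppib, the secretory pathway's cyclophilin B, which folds collagen, was at 703, 331 and 317 CPM in scramble and at 98.5 and 104 in pool 3 (−1.69 ± 0.04, edgeR adjusted p = 6.04e-17). Pdia4, a disulfide isomerase, was at 483, 519 and 544 against 201 and 208 (−1.39 ± 0.05), and the chaperone gene Hyou1 at 328, 478 and 462 against 263 and 271 (−0.82 ± 0.04). All scramble libraries were above pool 3 for these 3, each called in both fits. The calreticulin gene Calr (−0.50 ± 0.04) and the disulfide isomerase gene P4hb (−0.43 ± 0.04) fell in both fits, while the central chaperone gene Hspa5 fell by 0.17 ± 0.04 against scramble replicates 2 and 3 alone. Targets of ATF4, the transcription factor of the amino acid response, had 18 of 31 lower and 4 higher (median −0.16). Slc7a5, the large neutral amino acid transporter, fell from 125, 150 and 142 CPM to 61.1 and 60.8 (−1.27 ± 0.04), and the one-carbon enzyme gene Mthfd2 by 0.53 ± 0.06, both in both fits. Gdf15, a stress hormone, was at 5.96, 3.08 and 1.95 CPM in scramble and 7.31 and 7.27 in pool 3 (1.51 ± 0.17), but scramble replicate 1 was near pool 3 and the call was lost with all libraries (edgeR adjusted p = 0.136).

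Among 26 heat shock and oxidative stress genes 15 rose and 5 fell (median 0.17), and 5 rose and 2 fell with all libraries. Of all genes 22.7% rose and 26.1% fell, and 4.33% and 6.84% with all libraries. The selenoenzyme gene Txnrd1, thioredoxin reductase, was at 491, 624 and 599 CPM in scramble and at 1242 and 1182 in pool 3 (0.98 ± 0.04, edgeR adjusted p = 2.56e-13), the largest rise of the list. In both fits rises were also called for the quinone reductase gene Nqo1 (16.6, 15.9 and 13.3 against 23.0 and 21.1 CPM; 0.58 ± 0.09), the sulfiredoxin gene Srxn1 (0.54 ± 0.04) and the glutathione reductase gene Gsr (0.41 ± 0.05). Hmox1, heme oxygenase, fell from 168, 141 and 131 to 91.4 and 88.6 (−0.61 ± 0.06), and the NADPH-forming enzyme gene G6pdx from 250, 259 and 237 to 146 and 143 (−0.79 ± 0.05). Without scramble replicate 2 the number called higher with all libraries was 1, without scramble replicate 3 it was 3, and when either pool 3 library was left out it was 1.

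Steroid synthesis changed unevenly along the pathway. Of 21 genes tested 10 fell and 5 rose against scramble replicates 2 and 3 (median −0.15), and 5 and 1 with all libraries (1 and 0 when either pool 3 library was left out, 9 and 1 without scramble replicate 3). Star, which brings cholesterol into mitochondria, was at 453, 506 and 539 CPM in scramble and at 595 and 613 in pool 3 (0.20 ± 0.04). Cyp11a1, which cuts the cholesterol side chain, was at 3445, 2508 and 2444 against 1971 and 1989 (−0.33 ± 0.04), and Hsd3b1, which makes progesterone, at 1917, 1514 and 1572 against 973 and 1048 (−0.62 ± 0.05). Of these 3 steps Hsd3b1 alone was called with all libraries (−0.72 ± 0.13, edgeR adjusted p = 0.0104), as were Hsd17b1, at 136, 88.3 and 85.4 CPM against 39.8 and 40.2, and the lipoprotein receptor gene Scarb1 (−0.45 ± 0.05). Hsd3b6 rose by 1.21 ± 0.35 from 0.583, 0.722 and 0.346 CPM to 1.33 and 1.22, and was not called with all libraries (edgeR adjusted p = 0.0561). Of 22 fatty acid synthesis genes 15 fell and 1 rose (median −0.21): Elovl5, an elongase of polyunsaturated fatty acids, fell from 148, 188 and 193 CPM to 109 and 110 (−0.80 ± 0.04) and was the 1 member called with all libraries. Gpam, which starts triglyceride synthesis, was at 19.2, 118 and 118 CPM against 67.4 and 70.7, so that its fall of 0.78 ± 0.05 against scramble replicates 2 and 3 was −0.30 ± 0.60 with all libraries. Cholesterol synthesis genes fell in 10 and rose in 4 of 26 cases (median −0.09). Beside the lists of this paragraph, 26.1% of all genes fell and 22.7% rose against scramble replicates 2 and 3.

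Of 18 PI3K subunits and lipid phosphatases 4 rose and 6 fell (3 without scramble replicate 3), near the 22.7% and 26.1% of all genes, and 1 and 0 with all libraries. Of 22 mTOR, TSC and GSK3 genes 3 rose and 11 fell. With all libraries 0 rose and 3 fell (0 falling when either pool 3 library was left out, 1 without scramble replicate 2 and 6 without scramble replicate 3). Pik3cb, a catalytic subunit, rose from 30.2, 45.8 and 43.0 CPM to 58.8 and 61.3 (0.43 ± 0.05; edgeR adjusted p = 0.0468 with all libraries, a call lost without scramble replicate 3, without either pool 3 library and with length offsets), and the PI3K inhibitor gene Pik3ip1 from 18.6, 14.2 and 14.8 to 19.8 and 21.2 (0.50 ± 0.07, against scramble replicates 2 and 3 alone). Of 35 FOXO factors and FOXO-induced genes 11 rose and 10 fell (median 0.01), which is near the share of all genes in both directions. Foxo1, the main FOXO gene of granulosa cells, was itself lower, at 37.4, 60.8 and 58.7 CPM in scramble and 28.1 and 30.5 in pool 3 (−1.04 ± 0.08; edgeR adjusted p = 0.0369 with all libraries, a call lost without any 1 library other than scramble replicate 1), as was Foxo6 (−1.21 ± 0.08). Foxo3 was at 6.05, 44.4 and 41.7 against 44.9 and 49.2 and did not pass (0.12 ± 0.06). Cited2, a transcriptional coregulator, rose from 338, 334 and 289 CPM to 424 and 433 (0.45 ± 0.05, both fits), while Sod2 fell from 71.7, 51.3 and 48.5 to 30.4 and 32.3 (−0.68 ± 0.06). Of 22 genes of the insulin and IGF system 3 rose and 8 fell, with Igf1 at 179, 254 and 277 CPM against 178 and 182 (−0.57 ± 0.05, against scramble replicates 2 and 3 alone) and Igfbp3, a carrier of IGFs, at 15.8, 14.6 and 10.9 against 7.27 and 7.15 (−0.84 ± 0.12, both fits).

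Among 31 genes of gonadotropin and cAMP signalling 15 fell and 5 rose (median −0.16), and 3 and 1 with all libraries (0 and 0 when either pool 3 library was left out, 1 and 1 without scramble replicate 2). Of all genes 26.1% fell and 22.7% rose, and 6.84% and 4.33% with all libraries. Prkar2b, a regulatory subunit of protein kinase A that follicle stimulating hormone induces, fell from 99.9, 123 and 124 CPM to 77.1 and 75.5 (−0.70 ± 0.07), and Crem, a cAMP-induced repressor, from 40.6, 33.5 and 34.7 to 22.9 and 23.0 (−0.58 ± 0.06). Sik1, a kinase that restrains cAMP-driven transcription, rose from 49.4, 78.2 and 73.1 to 117 and 116 (0.61 ± 0.04). Each passed in both fits. Btc, the EGF-like ligand betacellulin of the ovulatory cascade, fell from 17.6, 25.1 and 26.7 CPM to 11.9 and 10.8 (−1.20 ± 0.09, both fits). Ptgs2, the prostaglandin synthase of ovulation, was at 191, 404 and 400 against 369 and 352 (−0.17 ± 0.04 against scramble replicates 2 and 3 alone).

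Of 35 collagens and collagen-modifying enzymes 21 fell and 6 rose (median −0.19), with 4 and 1 called with all libraries (1 and 0 when either pool 3 library was left out). The shares over all genes were 26.1% lower and 22.7% higher, and 6.84% and 4.33% with all libraries. The main fibrillar collagen Col1a1 was at 1174, 1702 and 1575 CPM against 1334 and 1432 (−0.25 ± 0.05), with scramble replicate 1 below pool 3, while the lysyl hydroxylase gene Plod1 fell from 107, 106 and 99.7 to 44.0 and 46.7 (−1.19 ± 0.06, both fits). Of 29 integrins, laminins and other basement membrane genes 16 fell and 6 rose, beside the same 26.1% and 22.7% of all genes. Itgb5, an integrin subunit for vitronectin, fell from 1128, 868 and 873 CPM to 457 and 483 (−0.90 ± 0.04, both fits), and Itga7, a laminin receptor subunit, rose from 21.1, 20.5 and 16.5 to 31.7 and 32.3 (0.78 ± 0.08, both fits). The laminin gene Lama1 was at 401, 812 and 840 against 376 and 407 (−1.08 ± 0.04) and was not called by edgeR with all libraries (adjusted p = 0.104). Scramble replicate 1 lay within the pool 3 range. The annotated transcript lengths of Lama1 and Col1a1 are 9526 and 5930 bases, above the median of 5700 in the longest class.

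Few interferon genes, which double-stranded RNA can induce, were called. Of 48 tested 4 were higher and 3 lower against scramble replicates 2 and 3 (median 0.13), and 0 with all libraries, where 22.7% and 26.1% of all genes were called against scramble replicates 2 and 3. Ifit1 was at 3.44, 7.33 and 4.54 CPM in scramble and at 4.55 and 7.00 in pool 3 (−0.05 ± 0.33), and Isg15 at 12.6, 14.1 and 9.47 against 7.81 and 12.4 (−0.22 ± 0.33). The ranges overlapped for both. Ifi47, an interferon-induced GTPase, was at 9.27, 7.22 and 6.06 CPM against 10.96 and 11.6 (0.76 ± 0.11), and Tlr3, a sensor of double-stranded RNA, at 1.597, 3.08 and 3.42 against 4.69 and 5.35 (0.63 ± 0.18). Both were above every scramble library and were among the 4 higher members, and neither was called with all libraries. These genes varied between libraries of a group, and the count of higher members was 6, 3, 4 and 2 without scramble replicate 2, scramble replicate 3, pool 3 replicate 1 and pool 3 replicate 2, and 13 when the other pools were left out of the fit. Of 32 ribosomal protein genes 4 were higher and 3 lower (median −0.03), and of 34 nuclear genes of oxidative phosphorylation 2 were higher and 9 lower (median −0.07). With all libraries the medians of these lists were −0.53 and −0.48. Scramble replicate 1 lay above the other scramble libraries by a median of 1.11 and 0.97 log2 for their members.

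Pool 3 was also compared with the other Akt1 pools, in a fit without scramble replicate 1. Scramble replicates 2 and 3 stayed in that fit for the filter and the spread, but not in the difference. Against the mean of pools 1, 2 and 4, edgeR called 5569 of 14062 genes (39.6%), 2549 higher in pool 3 (18.1%) and 3020 lower (21.5%), of which 116 and 58 were at least 2-fold apart. The count was 3520 without pool 3 replicate 1. Adding scramble replicate 1 to the fit gave 259 (85 higher, 174 lower), and 5 of the 15 genes checked there lost the call. Pool 1 held siRNAs 6, 7 and 8, pool 2 held 6, 8 and 9, and pool 4 held 7, 8 and 9, so pools 1, 3 and 4 share siRNA 7, which pool 2 lacks. Pool 3 differed from pool 2 in 6866 genes (48.8%), 654 of them at least 2-fold, from pool 1 in 2925 (20.8%; 87 at least 2-fold) and from pool 4 in 2366 (16.8%; 72 at least 2-fold).

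Akt1 itself was less reduced in pool 3 than in the others. It was at 63.0 and 57.7 CPM in pool 1, 53.8 and 56.3 in pool 2 and 54.6 and 61.6 in pool 4, all below the 77.3 and 79.6 of pool 3 (0.44 ± 0.05 log2 above their mean, edgeR adjusted p = 2.26e-07). Cdo1 and Atg9b, the largest fall and the largest rise in pool 3 by the rule for naming, had another order. Cdo1 was at 7.74 and 7.88 CPM in pool 3, 16.4 and 16.2 in pool 1, 16.9 and 17.4 in pool 4 and 47.5 and 48.7 in pool 2 (pool 3 against the mean of the others −1.61 ± 0.06, edgeR adjusted p = 5.72e-13). Atg9b was at 22.1 and 20.8 CPM in pool 3, 9.87 and 10.0 in pool 1, 10.1 and 9.96 in pool 4 and 3.49 and 4.17 in pool 2 (1.56 ± 0.07, edgeR adjusted p = 1.71e-12). In both, pool 3 stood at one end, pools 1 and 4 lay close together in between, and pool 2 was nearest to scramble. Genes picked for a large change in pool 3 tend to place pool 3 at one end. Stmn4 (1.54 ± 0.07), Adgrg3 (1.51 ± 0.11), Cldn1 (1.41 ± 0.10), Vash1 (1.38 ± 0.06) and Ptx3 (1.35 ± 0.07) were the other largest rises against the other pools. Smpd3 and Car14 (both −1.30) were among the largest falls. So were Mir6236 and Lars2, which also differed severalfold among scramble libraries, and Papss2.

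The gene groups of the comparison with scramble were read in this one too. The mean of the other pools includes pool 2, whose medians against scramble replicates 2 and 3 were −0.07 for granulosa markers and 0.05 for actin and SRF genes. Those medians were −0.39 and −0.35 in pool 1 and −0.48 and −0.36 in pool 4. List members were not counted against pools 1 and 4 alone. Against the other pools 18 of 27 granulosa markers were lower in pool 3 and 2 higher, and 30 of 41 actin and SRF genes were lower and 4 higher, where 21.5% and 18.1% of all genes were. Srf was at 29.1 and 32.9 CPM in pool 3, 38.1 and 36.9 in pool 1, 35.5 and 36.8 in pool 4 and 72.3 and 71.5 in pool 2 (−0.57 ± 0.05, edgeR adjusted p = 1.13e-08). Inha was at 1210 and 1327 CPM, 1797 and 1723, 1649 and 1753, and 1959 and 2120 in those pools (−0.53 ± 0.05). Of the mitosis genes 28 of 32 were higher in pool 3 than in the other pools and 1 lower, with Kif23 at 97.2 and 96.5 CPM against 77.6 and 79.8 in pool 1, 78.9 and 81.9 in pool 4 and 73.6 and 69.6 in pool 2 (0.33 ± 0.04). Immediate early genes were higher in 14 of 26 cases and lower in 4. Of 48 interferon genes 12 were lower in pool 3 and 2 higher, a share of lower members near that of all genes. Against scramble replicates 2 and 3 the interferon list had a median of 0.13 in pool 3, beside 0.63 in pool 1, 0.41 in pool 4 and 0.02 in pool 2. Since the comparisons of the pools with scramble share the scramble libraries, these medians are given side by side only.

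**Figure D5:**
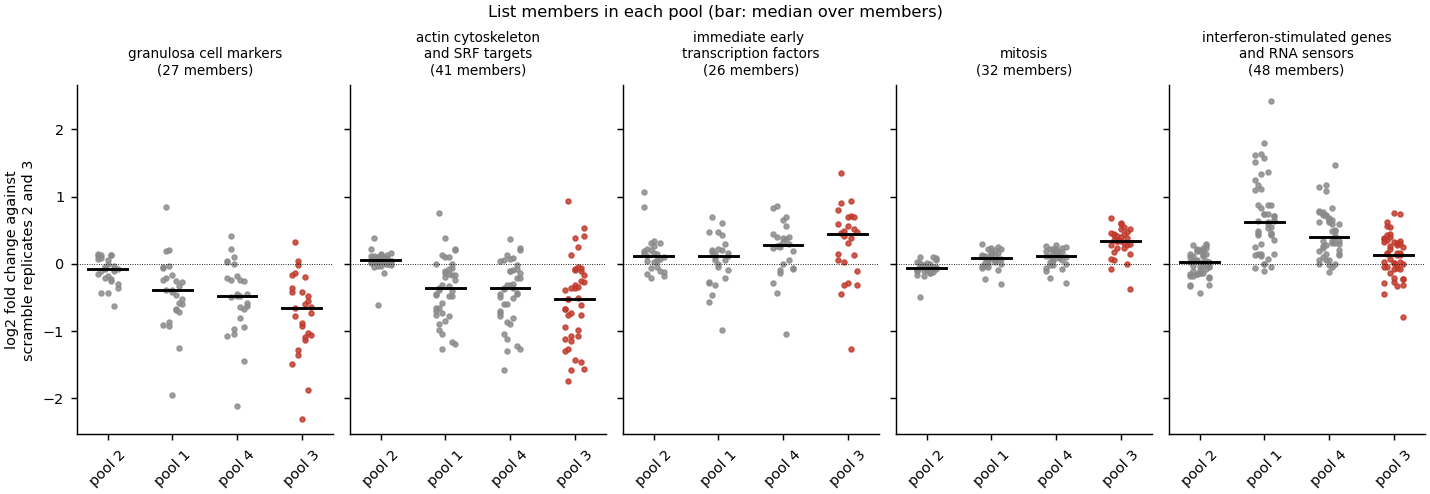
Log2 fold change against scramble replicates 2 and 3 of each member of 5 gene lists in pools 2, 1, 4 and 3 (1 point per gene, bar at the median). For granulosa markers the medians are −0.07, −0.39, −0.48 and −0.66, and for mitosis genes −0.06, 0.08, 0.12 and 0.34, in that order of pools.

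A few genes did not follow that order. Crabp2, which carries retinoic acid to the nucleus, was at 292, 149 and 159 CPM in scramble and 94.2 and 98.6 in pool 3 (−0.68 ± 0.05). Against scramble replicates 2 and 3 it was at −0.96, −1.02 and −1.01 in pools 1, 2 and 4, and pool 3 lay above the other pools by 0.31 ± 0.04 (edgeR adjusted p = 6.69e-06). Pik3ip1 rose less in pool 3 than in the others (0.50 against 0.83, 0.63 and 0.78 in pools 1, 2 and 4, difference −0.25 ± 0.05, edgeR adjusted p = 0.00106). For these genes, as for Akt1, the change was smaller in pool 3 than in each of the other pools. Egr1 differed between pools without any of these orders, at 0.80 in pool 3 beside −0.26, 1.07 and 0.82 in pools 1, 2 and 4.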

How the data were processed

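Polyadenylated RNA (1.3 µg of total RNA per library) was made into TruSeq stranded libraries and read as single 75-base reads, per the labels' protocols. The authors deposited raw counts of reads per gene, 24490 genes and 92 ERCC spike-in rows per library. Per the submitters' processing notes, which give no order, featureCounts 1.5.0-p2 and TopHat2 were used with mm10, together with cutadapt 1.9.1, FastQC 0.11.5, bcl2fastq 2.15.0 and DESeq2. The strand setting of the counting is not given in the sources used here, so overlapping genes on opposite strands may share reads. ERCC rows (0.268% to 0.788% of reads in the 5 libraries) were removed before scaling. The main test was edgeR 4.0.16 (R 4.3.3): TMM scaling, the filterByExpr filter, a quasi-likelihood fit over all 5 groups, and Benjamini-Hochberg adjustment over all genes, called under 0.05. In the fits without scramble replicate 1, 10 libraries entered. The SE of a log2 fold change is its size over the square root of F.

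DESeq2 1.42.0, limma 3.58.1 (voom), RLE scaling, other filters, length offsets, a fit of the compared groups alone, a replicate block and leaving out each library were tried as alternatives. The edgeR script was tested on simulated data. The members, gene lists and tests were chosen with earlier results of these data known. Named were Akt1, Akt2 and the 12 largest increases and decreases called in both fits with a mean log2 CPM of 2 or more and both pool 3 libraries outside the scramble range. For the comparison with the other pools the 6 largest each way were named. Up to 3 called members of each list were eligible, and other list members were chosen after their values were seen. Some genes that this rule names are not reported here. Transcript lengths are from GENCODE vM21, promoters from RefSeq (GRCm38.p6).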

Additional observations from a re-analysis of the deposited data

How the results depend on the processing

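Counts of genes called with all 3 scramble libraries depended most on the settings. Transcript-length offsets gave 3650 (1615 higher, 2035 lower), and a fit of scramble and pool 3 alone gave 0 by edgeR (0 higher, 0 lower; 1907 at an unadjusted p under 0.05), while over all groups DESeq2 gave 2323 and limma voom 1586. Leaving out each library in turn gave 210 to 6864 (60 to 3199 higher, 150 to 3665 lower), the ends being pool 3 replicate 1 and scramble replicate 1. Against scramble replicates 2 and 3, every alternative gave between 5532 and 7044, within 1.5 times of 6864. Against the other pools, leaving out each library gave 3520 to 5265 (1526 to 2498 higher, 1994 to 2767 lower), and adding scramble replicate 1 to the fit gave 259 (85 higher, 174 lower); the cause was not tested. The replicate numbers did not pair the samples, with correlations of deviations between pool 3 and same-numbered libraries of −0.043 to 0.019, and a fit with the replicate number as a block gave 1132 calls with all libraries (383 higher, 749 lower; 23 of the 119 named calls were lost), 6285 without scramble replicate 1 and 6184 against the other pools. The log2 fold changes of 159 of 169 named genes with all libraries, 161 of 168 against scramble replicates 2 and 3 and 15 of 15 against the other pools kept their sign under every alternative run. With all libraries, voom gave 0.0939 for Bax, 0.905 for Inhba and 0.10 for Gpam, length offsets 0.347 for Bax, and the block 0.728 for Inhba and 0.20 for Gpam. Leaving out each library there gave −0.777 to 0.0145 for Gpam, −0.243 to 0.447 for Bax, −0.253 to 0.00944 for Col1a1, −0.162 to 0.542 for Ifit1, −0.599 to 0.365 for Inhba, −0.623 to 0.0400 for Isg15, −0.466 to 0.0133 for Ldha, −0.0702 to 0.202 for Lima1, −0.166 to 0.287 for Ptgs2 and −0.0175 to 0.0325 for Smad7. Against scramble replicates 2 and 3 the block gave 0.0244 for Amhr2, −0.0197 for Ldha and 0.00192 for Smad7. Leaving out each library there gave −0.0892 to 0.0303 for Akt2, −0.122 to 0.0942 for Amhr2, −0.399 to 0.362 for Ifit1, −0.602 to 0.107 for Isg15, −0.0118 to 0.0542 for Ldha, −0.0763 to 0.109 for Pdgfra and −0.0335 to 0.0159 for Smad7. Depth limits genes near 1 CPM, where 1 library holds few reads of a gene.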

Other observations

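Of 35 lysosome and autophagy genes 13 fell and 7 rose against scramble replicates 2 and 3 (median −0.04), where 26.1% and 22.7% of all genes did, and 4 fell and 0 rose with all libraries (2 falling when either pool 3 library was left out). Atg5, which is needed to lipidate LC3, was at 46.5, 41.3 and 41.2 CPM in scramble and at 14.6 and 15.4 in pool 3 (log2 −1.46 ± 0.07 against scramble replicates 2 and 3; edgeR adjusted p = 0.000283 with all libraries). Atg7, the activating enzyme of the same reaction, was at 28.1, 29.4 and 23.8 against 14.5 and 14.4 (−0.89 ± 0.08; 0.00232 with all libraries). Pool 3 lay below every scramble library for both. Ulk1, the kinase that starts autophagy, was at 47.7, 77.6 and 74.7 against 46.8 and 47.8 (−0.69 ± 0.05) and was not called with all libraries, where scramble replicate 1 lay near pool 3. Atg5 was at 18.0 and 17.2 CPM in pool 1, 17.0 and 18.8 in pool 4 and 42.9 and 38.1 in pool 2.

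Dars, the aspartyl-tRNA synthetase, was at 117, 118 and 122 CPM in scramble and 41.6 and 44.7 in pool 3 (−1.48 ± 0.05), and at 49.98 and 47.7 in pool 1, 49.7 and 50.1 in pool 4 and 124 and 123 in pool 2. Slc16a1, a lactate and pyruvate transporter, was at 90.1, 85.0 and 95.0 against 41.2 and 41.5 (−1.13 ± 0.06), while Ldha, lactate dehydrogenase A, was not called (0.01 ± 0.04).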
